A study of Mus musculus with 3 samples.

Results

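The genes of MHC class II antigen presentation were followed across Cd11b-sorted cells of the mouse brain, by cell class and by library. The set holds 10 genes chosen by symbol: Cd74, H2-Aa, H2-Ab1, H2-Eb1, H2-DMa, H2-DMb1, H2-DMb2, H2-Oa, H2-Ob and Ciita. All 10 were found among the 27998 genes of the deposited count table. The animals were C57BL6J females of 5 months, and the tissue was the whole brain with the cerebellum left out. The Ctrl sample came from 1 untreated animal. The D0 sample pooled 2 animals that had eaten a diet with PLX5622 at 1200 mg/kg for 14 days; PLX5622 blocks the receptor Csf1r, on which microglia depend. The D2 sample came from 1 animal that received the same diet for 14 days and then 2 days of control diet. All samples were sorted for Cd11b, an integrin of myeloid cells, and sequenced by 10x Genomics 3′ chemistry, which counts 1 tag per captured transcript as a unique molecular identifier (UMI). The barcodes carry a suffix of 1, 2 or 3. Which suffix belongs to which group is not given in the sources used here, so the suffixes are called library 1, 2 and 3, the groups were not compared, and with 1 library per group no test was made.

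MHC class II molecules are pairs of an alpha and a beta chain that display peptides from the endosomes to CD4+ T cells. H2-Aa and H2-Ab1 encode the chains of I-A, and H2-Eb1 the beta chain of I-E, which C57BL6J mice do not display because their alpha chain gene for it is defective. Cd74, the invariant chain, blocks the groove of a new class II molecule and guides it to the endosome. There H2-DM, built from H2-DMa and either H2-DMb1 or H2-DMb2, exchanges the remnant of Cd74 for peptides, and H2-DO, built from H2-Oa and H2-Ob, restrains H2-DM. Ciita is the co-activator that switches these genes on by docking to factors on their promoters. Dendritic cells present antigen in this way constitutively, while microglia of a healthy brain are known for little class II at rest and for more of it under interferon gamma.

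The libraries differed in size and in makeup. Libraries 1, 2 and 3 held 1263, 599 and 287 cells with 6410990, 4022293 and 2831118 UMIs, at a median of 3662, 6188 and 8172 UMIs per cell, and they shared 0 barcodes. After filtering, 2137 cells remained. Clusters were built without the class II genes and named from marker lists, with the ending "-like". The labels call all samples microglia, but the microglia-like cells of libraries 1, 2 and 3 numbered 1087, 64 and 2. The other classes were dendritic-like cells with markers of conventional type 2 or monocyte-derived dendritic cells such as Cd209a and Mgl2 (248 cells), monocyte-like (193), NK-like (125), border-associated-macrophage-like (85), non-classical-monocyte-like (83), neutrophil-like (81) and migratory-dendritic-like cells (59). A cluster of 82 cells led by the cell cycle gene Birc5 held at least 3 markers of several lists but none among its leading genes, and stayed unnamed. The border-associated-macrophage-like cells, 81 of them in library 1, also carried RNA of all 10 microglia markers, at 18740 in sum when scaled to 1000000 UMIs (CPM) against 3793 CPM for their own markers.

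Of the 10 genes, 8 lie within 224.3 kb at chr17:34092340-34316674 (GRCm38, GENCODE vM21), while Cd74 and Ciita lie on other chromosomes. RefSeq promoter windows (GRCm38.p6, 250 bases before to 50 after the start) matched 7 of the 10, with none for Cd74, H2-Ab1 and Ciita. The 4 stretches printed here are shown because class II promoters share a module of an X box and a Y box through which Ciita acts. Each ends before annotated exon sequence. H2-Aa is on the minus strand at chr17:34287824-34287953, H2-Eb1 on the plus strand at chr17:34305737-34305866, H2-Ob on the plus strand at chr17:34238775-34238902 and H2-DMb2 on the plus strand at chr17:34145119-34145235. Capitals mark the Y box core ATTGG, and upstream of it either the X2 core TGACG (H2-Aa) or an X box pattern (the others), which was C, 4 bases of any kind, AAC, 2 bases of any kind and ATG.
H2-Aa: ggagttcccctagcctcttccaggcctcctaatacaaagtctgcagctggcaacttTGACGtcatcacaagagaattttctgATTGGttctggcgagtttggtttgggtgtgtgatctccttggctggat
H2-Eb1: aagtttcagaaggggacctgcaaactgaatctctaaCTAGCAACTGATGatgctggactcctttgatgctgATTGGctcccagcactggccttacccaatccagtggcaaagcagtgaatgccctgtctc
H2-Ob: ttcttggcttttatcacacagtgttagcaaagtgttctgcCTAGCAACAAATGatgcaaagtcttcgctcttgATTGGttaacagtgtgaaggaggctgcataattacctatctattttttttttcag
H2-DMb2: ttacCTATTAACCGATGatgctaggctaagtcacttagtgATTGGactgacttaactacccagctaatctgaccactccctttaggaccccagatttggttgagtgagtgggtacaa
The Y box core was found on the gene's strand in all 7 members matched, in H2-DMa only at the second of its 2 starts, and in 22.1% of all 32851 promoters on that strand or 37.4% on either strand. Its first base lay between position -43 (H2-Oa) and -90 (H2-DMb2) from the start in 6 members, and at -198 in H2-DMa. The X box pattern stood in H2-Eb1, H2-Ob, H2-DMb1 and H2-DMb2, with 20 to 23 bases between its end and the Y box, and in 2.06% of all promoters. It was written after the sequences were seen, so its presence in these members supports nothing. Both strands were searched for every pattern. The X1 core AGNAACNG was found in H2-Eb1, H2-DMb1 and H2-Oa and in 17.4% of promoters. It overlaps that pattern in H2-Eb1 and H2-DMb1. In H2-Oa it lay on the opposite strand across the start, downstream of the Y box. TGACG was found in H2-Aa alone among the members (once on each strand, overlapping) and in 20.8% of promoters. A match describes letters and is not a binding site.

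H2-DMb1 and H2-DMb2 are neighbouring copies of 1 gene, and their stretches that match the X box pattern are shown side by side. The ratio of RNA of these genes differed between cell classes, and any part of the letters in it was not tested. Capitals mark the bases that differ.
H2-DMb1: ctaGtaacTgatg
H2-DMb2: ctaTtaacCgatg
Over the 41 bases from the first base of this X pattern to the end of the Y box core, 36 were the same (87.8%). Counted from that first base at the 5′ end, and with H2-DMb1 given first, the differences were G4T, T9C, G24A, T26G and C32T. Reads from parts that the copies share could be counted for the wrong one or dropped, so the counts of both are uncertain in every class.

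Dendritic-like cells held the most Cd74 RNA in every library, and NK-like cells the least in libraries 2 and 3, where they were measured. Each value is the CPM of a class as 1 sum of UMIs, with 95% Poisson intervals that cover counting error only. Cd74 stood in dendritic-like cells at 37233, 43212 and 33030.0 CPM in libraries 1, 2 and 3. In libraries 2 and 3 it stood at 26508 and 10860.3 CPM in monocyte-like cells, and at 28263 and 7555 CPM in the Birc5-led cells. These classes overlapped each other across libraries, and none of them reached the lowest dendritic-like value. Migratory-dendritic-like cells of library 2 held 16296 CPM (15912 to 16686), inside the ranges of both, and border-associated-macrophage-like cells of library 1 held 7274 CPM (7092 to 7459). Further down, non-classical-monocyte-like cells had 1229 and 1442 CPM and neutrophil-like cells 1433 and 459 CPM in libraries 2 and 3, and libraries 1 and 2 gave 705 CPM (682 to 729) and 859 CPM (758 to 969.8) in microglia-like cells. The neutrophil-like range overlapped those of the other 2 classes. NK-like cells, which should lack these genes, had 141 CPM (99.6 to 195) and 54.2 CPM (19.9 to 118) in libraries 2 and 3, below every class named before.

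The 3 chains followed this order less closely. Over libraries, dendritic-like cells ranged from 11477 to 15417 CPM of H2-Aa and from 13766 to 18186 CPM of H2-Ab1, and the Birc5-led cells of library 2 reached into both ranges, with 12297 and 14268 CPM. For H2-Eb1 the dendritic-like range of 9917 to 11888 CPM overlapped no other class, and the lowest value was that of neutrophil-like cells of library 3 (47.8 CPM), beside 54.2 CPM in NK-like cells of that library. Pooled over libraries, dendritic-like cells held 14019.5 CPM of H2-Aa, 16826 CPM of H2-Ab1 and 11152 CPM of H2-Eb1, and microglia-like cells 227, 301 and 199 CPM. The 4 classical genes (Cd74 and the 3 chains) were together 56.9-fold (55.6 to 58.3) higher in dendritic-like than in microglia-like cells, 50.7-fold within library 1 and 57.2-fold within library 2. All 10 members were at least 2-fold higher in dendritic-like cells, against 9.8% of the 8104 genes with at least 50 UMIs in both classes together, and 34.1% of those genes were lower. Within library 1 and within library 2 it was 9 of 9 members tested, against 6.68% and 17.6% of genes higher and 34.1% and 16.5% lower. Border-associated-macrophage-like cells, compared with microglia-like cells within library 1, had 4 of 9 members at least 2-fold higher and 0 lower, against 3.79% and 3.29% of 7593 genes, and those 4 were the classical genes. The fold of the classical genes between dendritic-like and microglia-like cells rests on a few microglia-like cells. As a mean over cells in place of a sum over counts it was 125, and without the 1% of cells of each class and library with the most class II UMIs it was 292.

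**Figure D1:**
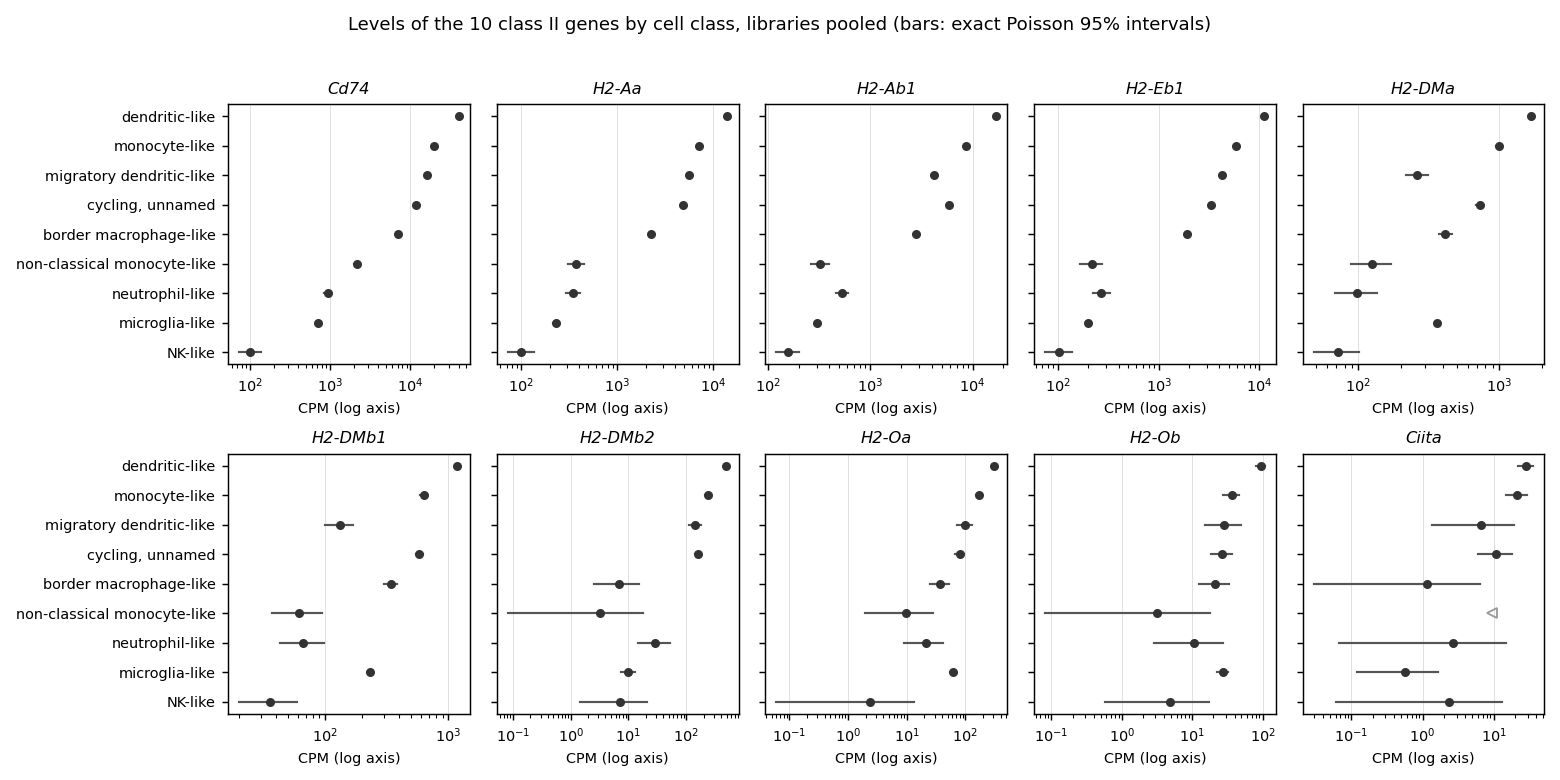
Level of each of the 10 genes by cell class, as CPM on a log axis with 95% Poisson intervals (counting error only), libraries pooled; the open triangle marks the limit that 3 counts would set for Ciita in non-classical-monocyte-like cells, where 0 UMIs were found. Dendritic-like cells lie highest for every gene, and the distance to microglia-like cells is wide for Cd74, the 3 chains, H2-DMb2 and Ciita and narrow for H2-DMa, H2-DMb1, H2-Oa and H2-Ob.

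The editors of the peptide groove behaved differently from the chains. H2-DMa, the alpha chain of H2-DM, stood in dendritic-like cells at 1419.9, 1793 and 1627 CPM in libraries 1, 2 and 3, and in microglia-like cells at 371 CPM (354 to 388) and 283 CPM (226 to 349.6) in libraries 1 and 2. The dendritic-like values exceeded the microglia-like ones by 4.65-fold (4.4 to 4.92) in the pool, 3.83-fold in library 1 and 6.33-fold in library 2. H2-DMb1, a beta chain of H2-DM, differed by 5.05-fold (1177 against 233 CPM). H2-DMb2, the other beta chain, differed by 49.5-fold (37.5 to 66.7), with 489.9 CPM (461 to 519.9) against 9.89 CPM (7.39 to 13; 52 UMIs), by 32.9-fold in library 1 and by 39.1-fold in library 2. In these sums the fold of H2-DMb2 was near that of the classical genes and far from that of its neighbour. The nearness depends on 13 microglia-like cells in which the 10 genes gave 2% or more of the UMIs. Those cells held 20653 CPM of Cd74 and 6.57 CPM of H2-DMb2 (1 UMI). The other 1140 held 118 CPM of Cd74 and 9.99 CPM of H2-DMb2, so H2-DMb2 did not rise with Cd74 between these sets of cells. Microglia-like cells held more H2-DMa than non-classical-monocyte-like cells (125 CPM), neutrophil-like cells (97.8 CPM) and NK-like cells (71.4 CPM). In the same pool the non-classical-monocyte-like and the neutrophil-like cells nevertheless held more Cd74 than microglia-like cells.

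H2-DO and Ciita were low everywhere. H2-Oa stood at 312 CPM in dendritic-like and 62 CPM in microglia-like cells, a 5.04-fold difference, and H2-Ob at 93.5 and 27.0 CPM, a 3.46-fold difference. Ciita gave 63 UMIs in dendritic-like cells (28.3 CPM) and 3 UMIs in 1153 microglia-like cells (0.571 CPM, 0.118 to 1.67), a ratio of 49.6 with an interval of 16.2 to 247. The border-associated-macrophage-like cells held 1 UMI of Ciita (1.16 CPM) beside 7098 CPM of Cd74. Non-classical-monocyte-like cells held 0 UMIs of Ciita, which allows up to 9.62 CPM by 3 counts.

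A ratio within a class does not depend on depth, so the share of each gene among the class II UMIs was compared as well. In dendritic-like cells Cd74 made up 46.7% of these UMIs and the 5 genes of H2-DM and H2-DO together 4.39% (4.33%, 4.30% and 4.78% in libraries 1, 2 and 3). The monocyte-like (4.81%) and the border-associated-macrophage-like class (5.51%) were close to this, and migratory-dendritic-like cells lay lower, at 2.14%. In microglia-like cells the same 5 genes made up 32.6% of the class II UMIs, and in the microglia-like cluster led by P2ry13, a purinergic receptor of homeostatic microglia, 76.9%. Within that cluster the share was 84.1% in library 1 and 34.8% in library 2. These shares also varied with the number of cells rich in class II RNA, so they are not a trait of the class alone. In the 61 border-associated-macrophage-like cells with under 2% class II UMIs, Cd74 stood at 848 CPM, H2-DMa at 277 CPM and H2-DMb1 at 225 CPM. In the corresponding 94 monocyte-like cells these were 1365, 387 and 139 CPM. In the 13 microglia-like cells with 2% or more they were 20653, 723 and 532 CPM. The NK-like cells had 20.7% (15.8 to 26.3) from 246 class II UMIs, and their most frequent member was H2-Ab1 with 26.8%, not Cd74 with 17.5%. Non-classical-monocyte-like cells stood out for Cd74, with 65.9% of their class II UMIs and 5.75 UMIs of Cd74 (4.72 to 7.06) per UMI of H2-Aa, where dendritic-like cells had 2.86.

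**Figure D2:**
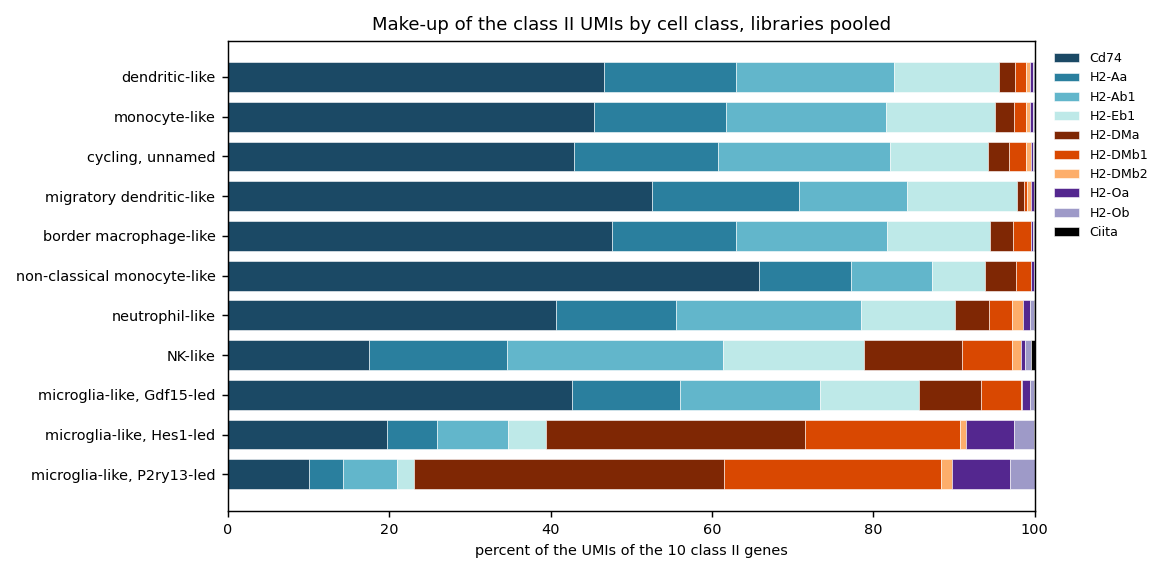
Share of each gene among the UMIs of the 10 class II genes, in percent, by cell class and microglia-like cluster. The H2-DM and H2-DO genes fill most of the bar in the P2ry13-led cluster (76.9%) and a thin band in dendritic-like cells (4.39%).

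Microglia-like cells fell into 3 clusters, led by P2ry13 (495 cells), by Hes1 (450 cells) and by Gdf15 with cytokine and immediate early genes such as Il1a, Tnf and Egr1 (208 cells). Their summed classical class II RNA differed widely, mostly through 13 cells of library 1, while the intervals of their H2-DM RNA overlapped. Cd74 stood at 89.6 CPM (75.5 to 106) in the P2ry13-led, 231 CPM (211 to 252) in the Hes1-led and 2055 CPM (1983 to 2128) in the Gdf15-led cluster. In 1 Hes1-led and 12 Gdf15-led cells the 10 genes gave 2% or more of the UMIs, and these cells held 30.9% and 79.8% of the class II UMIs of their clusters. Without them Cd74 stood at 53.6 CPM (44.3 to 64.4) in the Hes1-led cluster, below the P2ry13-led one, and at 252 CPM (227 to 280.4) in the Gdf15-led cluster. Within library 1 alone the remaining cells held 55.9 CPM (44.4 to 69.5) in the P2ry13-led, 49.5 CPM (40.5 to 59.9) in the Hes1-led and 120 CPM (101 to 141) in the Gdf15-led cluster, so the intervals of the first 2 overlapped and the third lay above them. With all cells, the corresponding values were 344, 375 and 372 CPM for H2-DMa and 241, 225 and 235 CPM for H2-DMb1, with intervals that overlapped for all pairs of clusters. H2-Oa had 64.4, 69.5 and 48.9 CPM and H2-Ob 27.1, 28.7 and 24.5 CPM. In the P2ry13-led cluster there were 3.84 UMIs of H2-DMa for each UMI of Cd74, in the Gdf15-led cluster 0.181 (1.33 without its 12 cells), and in dendritic-like cells 0.0423. The P2ry13-led cells of library 2 (35 cells) had 424 CPM of Cd74 (314 to 561) against 55.9 CPM (44.4 to 69.5) in library 1 (458 cells), while H2-DMa had 286 and 351 CPM. Microglia markers made up a median of 2.77% of UMIs in those of library 2 and 4.22% in those of library 1. In library 2 the class II genes made up 5.40% of all UMIs against 0.843% in library 1; the part of RNA outside cells in this difference was not tested.

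The share of cells with at least 1 UMI was compared after thinning each cell to 2000 UMIs and leaving out shallower cells (74 microglia-like, 16 NK-like and 8 neutrophil-like). H2-DMa was found in 50.1% of microglia-like cells (541 of 1079), 15.6% of NK-like, 16.4% of neutrophil-like and 94.0% of dendritic-like cells. Within library 2 the H2-DMa shares were 41.4% (28.6 to 55.1) in microglia-like, 19.4% (10.8 to 30.9) in NK-like and 22.5% (10.8 to 38.5) in neutrophil-like cells, with intervals that overlapped. Without thinning the pooled shares were 69.6%, 20%, 24.7% and 97.6%, at median depths of 3423, 3025, 3772 and 8323 UMIs. In the P2ry13-led, Hes1-led and Gdf15-led clusters the thinned H2-DMa share was 51.0%, 50.2% and 48.1%. Cd74 was found in 13% of thinned microglia-like cells (140 of 1079) and 20.7% of unthinned ones, beside 18.3% and 24.0% of NK-like and 28.8% and 37.0% of neutrophil-like cells. These pooled shares mix libraries, since most microglia-like cells were in library 1 and most cells of the other 2 classes in library 2. Within library 2 the thinned Cd74 share was 65.5% (51.9 to 77.5; 38 of 58) in microglia-like cells, above 25.4% (15.5 to 37.5) in NK-like cells, and its interval overlapped that of neutrophil-like cells, 45% (29.3 to 61.5). In library 1 it was 9.91%, with too few NK-like and neutrophil-like cells there for a background. Without library 1 it was 56.7%, which did not come from the same thinned counts as the 38 of 58. H2-DMb2 was found in 2.32% of microglia-like cells, 1.83% of NK-like and 48.0% of dendritic-like cells, and a UMI of Ciita in 0 of 1079 microglia-like and 4.44% of dendritic-like cells. By 3 counts the former allows up to 0.278% of cells with a UMI at this depth, which sets no limit on cells that express Ciita.

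Most class II RNA sat in a minority of cells. Cells in which the 10 genes gave 2% or more of the UMIs were called class II-high, a limit chosen after the values were seen; it marks a range of a continuous share and not a cell type. The class II-high cells numbered 432 of 2137 and held 96.3% of the 343005 class II UMIs. Near the limit, between 1% and 3%, lay 40 cells, and limits of 1% and 4% gave 452 and 384 cells. Of the dendritic-like cells 235 of 248 were class II-high, of the monocyte-like cells 99 of 193, of the Birc5-led cells 38 of 82, of the migratory-dendritic-like cells 18 of 59 and of the border-associated-macrophage-like cells 24 of 85. Among microglia-like cells there were 13 of 1153, all in library 1 and 12 of them in the Gdf15-led cluster, and they held 58.7% of the class II UMIs of their class. Among NK-like cells there were 0 of 125. All 24 class II-high border-associated-macrophage-like cells were in library 1 as well, and held 89.3% of that class's class II UMIs.

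**Figure D3:**
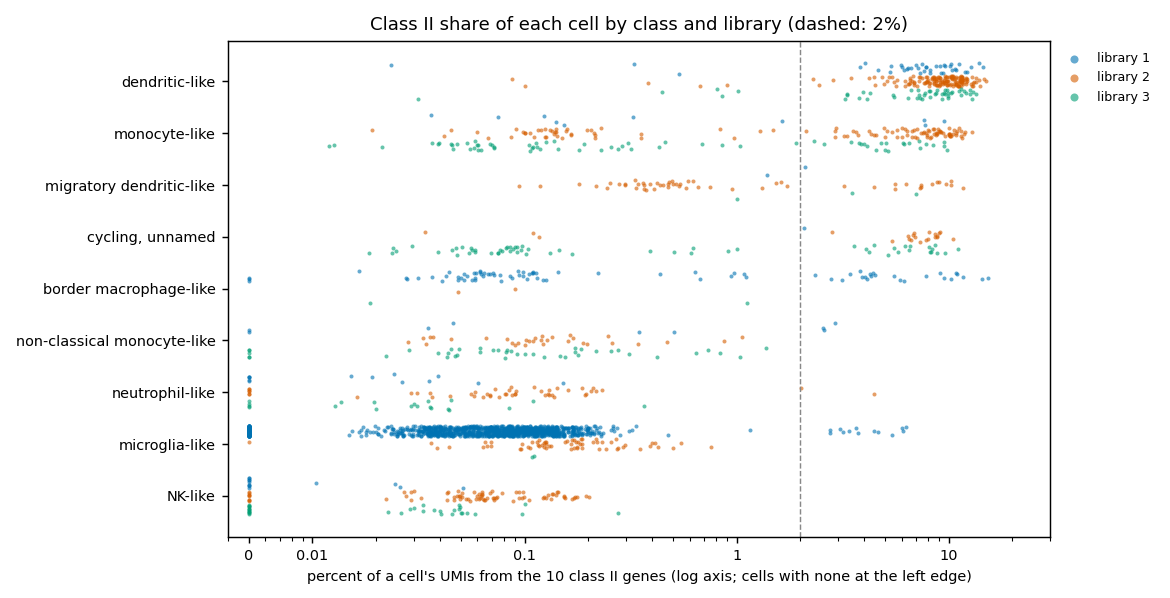
Share of each cell's UMIs that came from the 10 class II genes, in percent, by cell class; each point is 1 cell, and the line marks the limit of 2% for class II-high cells. Dendritic-like cells lie almost all above it (235 of 248), microglia-like cells almost all below it (1140 of 1153), and monocyte-like, Birc5-led and border-associated-macrophage-like cells on both sides.

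Outside the class II-high cells, microglia-like cells of all libraries held 118 CPM of Cd74 and 56.2 CPM of H2-Ab1 beside 354 CPM of H2-DMa and 224 CPM of H2-DMb1. The 13 class II-high cells held 20653 CPM of Cd74, 723 CPM of H2-DMa (594 to 871) and 532 CPM of H2-DMb1. The difference in Cd74 was fixed by the choice of these cells, since Cd74 and the chains make up most of the share that defines them. These 13 cells were deeper, with a median of 12699 against 3388 UMIs. Their microglia markers made up a median of 2.19% against 3.74% of UMIs. Part of both contrasts went with the cluster, since 12 of the 13 were Gdf15-led. These 12 had medians of 11202 UMIs and 2.12% microglia markers, against 5867 UMIs and 2.97% in the other 173 Gdf15-led cells of library 1. P2ry12, a microglia marker, was found in all 13. Its presence does not set microglia apart in library 1. There it was found in 75% of class II-high and 96.5% of other border-associated-macrophage-like cells, and in 48.6% of class II-high dendritic-like cells. Mgl2, a lectin of dendritic cells and macrophages, stood at 276 CPM and in 61.5% of the 13 cells, against 2.16 CPM in the other microglia-like cells. Of 2 further dendritic lectins, Cd209a was found in 1 of the 13 cells (7.69%) and Clec10a in 0. The part of mixed droplets in these cells was not tested.

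H2-DMb2 separated the class II-high cells of microglia-like and macrophage-like classes from those of the dendritic-like class, within library 1 alone. In the 13 microglia-like cells there was 1 UMI of H2-DMb2 (6.57 CPM, 0.166 to 36.6). In the 24 border-associated-macrophage-like cells there were 2 UMIs in 2 cells (10.6 CPM, 1.28 to 38.3). In the 37 dendritic-like cells there were 116 UMIs in 24 cells (346 CPM, 286 to 415). The interval of the dendritic-like cells lay far above the others, although Cd74 stood at 20653, 29465 and 40106 CPM in these 3 sets of cells. H2-DMb1 was present in all of them, at 532 CPM (423 to 661), 753 CPM (634 to 888) and 1336 CPM (1215 to 1466). Per UMI of H2-DMb2 there were 81 UMIs of H2-DMb1 (14.1 to 3238) in the microglia-like, 71 (19.3 to 592) in the border-associated-macrophage-like and 3.86 (3.14 to 4.78) in the dendritic-like cells.

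The same split held in whole classes. Over all cells the ratio of H2-DMb1 to H2-DMb2 was 23.5 (17.8 to 31.7) in microglia-like and 49.0 (22.2 to 135) in border-associated-macrophage-like cells, against 2.40 (2.24 to 2.58) in dendritic-like, 2.69 (2.39 to 3.02) in monocyte-like and 3.64 (3.13 to 4.25) in Birc5-led cells. In migratory-dendritic-like cells it was 0.923 (0.639 to 1.33), so the copies had about equal counts there. Among dendritic-like cells the ratio was 3.97 (3.23 to 4.90) in library 1, 2.39 (2.19 to 2.61) in library 2 and 1.75 (1.5 to 2.04) in library 3, and these intervals did not overlap. The dendritic-like cells of library 1 also held more microglial RNA, with P2ry12 in 48.6% of the class II-high ones against 7.19% in library 2 and 0% in library 3, whose part in the ratio was not tested. Under other clusterings, filters and limits that left at least 10 such cells, H2-DMb2 in class II-high cells ranged from 6.13 to 8.15 CPM in microglia-like, from 0 to 20.3 CPM in border-associated-macrophage-like and from 322 to 361 CPM in dendritic-like cells of library 1. In monocyte-like cells of all libraries it ranged from 289 to 409 CPM. The microglia-like class had only 6 cells at a limit of 4%, and no monocyte-like class formed at resolution 0.3, so those settings gave no value for them.

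H2-Oa, the alpha chain of H2-DO, was split in the same direction on fewer counts. It had 8 UMIs in the class II-high microglia-like cells (52.6 CPM, 22.7 to 104), 8 UMIs in the border-associated-macrophage-like cells (42.4 CPM, 18.3 to 83.6) and 80 UMIs in the dendritic-like cells of library 1 (239 CPM, 189 to 297). For H2-Ob the values were 26.3 CPM (7.16 to 67.3), 26.5 CPM (8.61 to 61.9) and 80.5 CPM (53.1 to 117), with intervals that overlapped. Ciita gave 1, 1 and 9 UMIs, too few to set the classes apart. H2-DMa had 723, 907 and 1482 CPM.

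**Figure D4:**
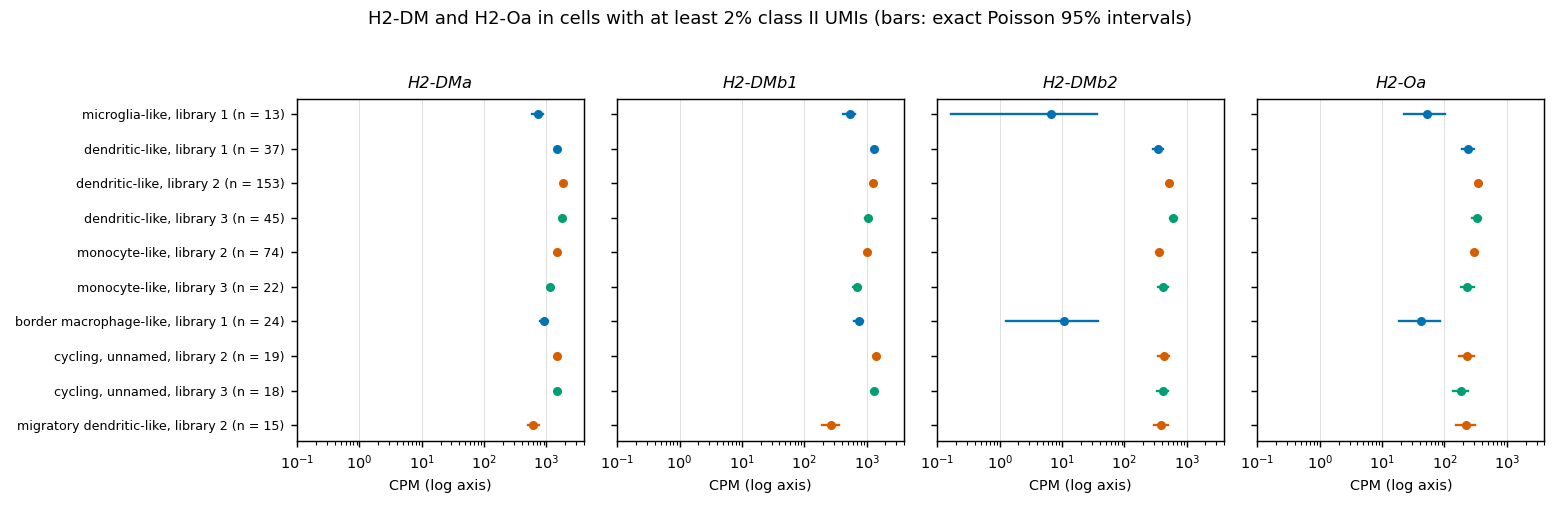
Level of H2-DMa, H2-DMb1, H2-DMb2 and H2-Oa in class II-high cells by class and library, as CPM on a log axis with 95% Poisson intervals (counting error only). H2-DMb2 lies near 10 CPM in microglia-like (6.57) and border-associated-macrophage-like cells (10.6) and above 300 CPM in dendritic-like cells, while H2-DMb1 lies above 500 CPM in all 3.

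In other genes, the class II-high border-associated-macrophage-like cells differed from the remaining 57 cells of that class in library 1. At least 50 UMIs were counted for 2331 genes, of which 1.63% were at least 2-fold higher and 10.9% at least 2-fold lower in class II-high cells. The genes named here were chosen after their values were seen. Ccr2, the receptor that brings monocytes into tissue, stood at 239 against 10.8 CPM, and Cd72, an inhibitory receptor, at 260 (192 to 344) against 9.29 CPM. Folr2, a marker of border-associated macrophages, stood at 37.1 against 198 CPM, Mrc1 at 207 against 554 CPM and the lectin Cd209g at 5.30 against 200 CPM. In this class the microglia markers made up a median of 0.728% of UMIs in class II-high and 2.00% in other cells. Cd72 was also higher in the class II-high microglia-like cells of library 1, at 164 against 7.95 CPM, where 4.37% of 7124 genes were higher and 17.5% lower. Those sets of cells also differed in cluster, since 12 of the 13 class II-high cells were Gdf15-led. Class II-high monocyte-like cells of library 2 held 649 CPM of Mgl2, of which the other 41 cells had 0 UMIs, and less of the monocyte genes Chil3 (125 against 1946 CPM) and Lyz2 (8105 against 45213 CPM), where 7.96% of 2048 genes were higher and 9.08% lower. The Birc5-led cells of library 3 split likewise, with Mgl2 at 1165 CPM in 18 class II-high cells and 9.96 CPM in 41 others, and 5.79% of 2729 genes were higher and 13.5% lower. In those 41 cells the microglia markers had a median of 0.504% of UMIs against 0.0432%. Of the migratory-dendritic-like cells of library 2, the 15 class II-high ones held 281 CPM of Cd209a against 30.3 CPM in the other 39, where 8.68% of 933 genes were higher and 7.61% lower.

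Between libraries of 1 class, the class II genes, like most genes, stayed within 2-fold in dendritic-like cells. In several other classes some of them were further apart. A gene counted as apart at a ratio of at least 2, among genes with at least 50 UMIs in the class over both libraries. In microglia-like cells 0 of 9 members tested were apart between libraries 2 and 1, where 2.44% of 7251 genes were higher and 20.4% lower in library 2. That closeness rested on the 13 class II-high cells, which held 62.4% of the class II UMIs of microglia-like cells in library 1. Without them 4 of 9 members, the classical genes, were at least 2-fold higher in library 2 and 0 lower (background 2.44% of 7175 genes higher and 20.4% lower). Library 2 then had 859 CPM of Cd74 where the remaining cells of library 1 had 69.3 CPM (interval 62 to 77.1), a 12.4-fold difference, and the 3 chains differed by 7.86-fold to 11-fold. H2-DMa stood at 283 and 359 CPM and was within 2-fold. The cells of library 2 also held less RNA of microglia markers, a median of 2.08% of UMIs against 3.80% in the remaining cells of library 1. Tmem119 stood at 629 and 3112 CPM. At resolution 1.0 the microglia-like class held 33 cells of library 2 in place of 64. All class II genes together made up more of the UMIs of library 2 as a whole, as given above. The parts of these marker levels and of RNA outside cells in the Cd74 difference were not tested. In dendritic-like cells 0 of 9 or 10 members tested were apart in any pair of libraries, with backgrounds of 2.33% higher and 4.45% lower for library 2 over 1, 4.21% and 5.37% for library 3 over 1, and 3.86% and 2.48% for library 3 over 2. Few genes of any kind were apart in these pairs, so this count does not set the class II genes apart from others. In monocyte-like cells 6 of 9 were at least 2-fold lower in library 3 than in library 2 and 0 higher (background 4.31% lower and 3.81% higher), namely Cd74, the 3 chains, H2-DMb1 and H2-Oa, with a median log2 ratio of -1.19 over the 9 against 0.17 over all genes. In the Birc5-led cells 8 of 8 were lower (background 5.7% lower and 16% higher), with a median of -1.84 against 0.22. These ratios are of sums over all cells of a class, and levels within class II-high cells are given below. In neutrophil-like cells 4 of 4, the classical genes, were lower (background 21.5% lower and 1.65% higher). That count rested in large part on 2 class II-high cells of library 2. Its other 46 cells held 261 CPM of Cd74, 170 CPM of H2-Aa, 311 CPM of H2-Ab1 and 75.2 CPM of H2-Eb1. The 20 cells of library 3 held 459, 105, 124 and 47.8 CPM, so Cd74 was then higher in library 3. In NK-like cells the 1 member tested, H2-Ab1, was lower (background 1.42% lower and 1.42% higher), and in non-classical-monocyte-like cells 0 of 3 were apart (background 6.14% lower and 4.86% higher).

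The number of class II-high cells, which is counted from the same genes and is no separate measure, differed too. In monocyte-like cells 74 of 115 were class II-high in library 2 and 22 of 68 in library 3, and in the Birc5-led cells 19 of 22 and 18 of 59. Within class II-high cells of libraries 2 and 3, Cd74 stood closer, at 33724 and 23755 CPM in monocyte-like and 32753 and 28513 CPM in Birc5-led cells. In the remaining cells it stood at 1456 and 1297 CPM in monocyte-like cells. In Birc5-led ones it was 182 CPM (3 cells) and 545 CPM (41 cells). The limit of 2% bounds these levels in part. In neutrophil-like cells of library 2, 2 of 48 cells held 74.4% of the class II UMIs; neutrophil markers made up a median of 15.1% of their UMIs, against 38.0% in the other 46. The monocyte-like class was also mixed. A finer clustering placed 52 of its 193 cells in a cluster named for neutrophils, and these 52 had a median of 6.81% class II UMIs and 2.23% neutrophil marker UMIs, against 0.276% and 0.0422% in the other 141. When the class II genes were kept among the clustering genes, Cd74 stood at 10964 CPM in monocyte-like and 15987 CPM in neutrophil-like cells, in place of 19519.8 and 941 CPM, so the level of Cd74 in these 2 classes depends on where such cells are placed. In border-associated-macrophage-like cells it was 3975 CPM under the finer clustering.

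**Figure D5:**
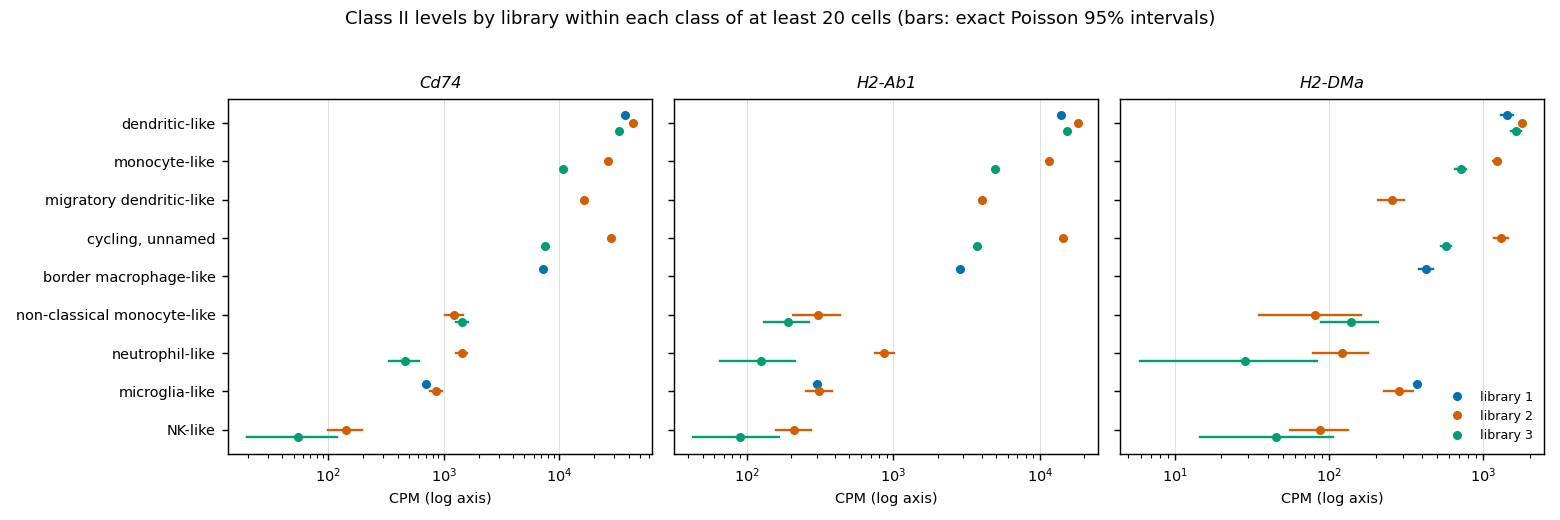
Levels of Cd74, H2-Ab1 and H2-DMa by library within each class of at least 20 cells, as CPM on a log axis with 95% Poisson intervals (counting error only). Points of different libraries lie close together in dendritic-like cells and apart in monocyte-like and Birc5-led cells, where library 3 is lower as a sum over all cells of the class.

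Migratory-dendritic-like cells, which carry Ccr7 and other genes of dendritic cells on the way to lymph nodes, were compared with dendritic-like cells within library 2 (54 and 158 cells). All 9 members tested were at least 2-fold lower (background 19.1% of 3264 genes lower and 11.1% higher), with a median log2 ratio of -1.85 against -0.16 over all genes. The H2-DM genes H2-DMa and H2-DMb1 were the lowest relative to dendritic-like cells, at 255 CPM (209 to 308) and 131 CPM (98.6 to 170.3), where dendritic-like cells had 1793 and 1229.7 CPM. H2-DMb2 had 152 CPM (117 to 194) against 515 CPM, and Cd74 16296 against 43212 CPM. The chains of I-A did not differ by the same ratio. H2-Ab1 gave 0.728 UMIs per UMI of H2-Aa in these cells and 1.18 (1.16 to 1.2) in dendritic-like cells of the same library. A part of the class carried most of this RNA, since 15 of the 54 cells were class II-high and held 88.2% of the class II UMIs. The genes H2-DMa and H2-DMb1 were also low in those 15 cells, at 614 CPM (497 to 749.7) and 269 CPM (194 to 363), beside 36434 CPM of Cd74, where class II-high dendritic-like cells of library 2 had 1813, 1246 and 44115 CPM of H2-DMa, H2-DMb1 and Cd74.

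Genes around the class II pathway were compared between dendritic-like and microglia-like cells over all libraries, with the background given above (9.8% higher, 34.1% lower). These sums mix class with library, since library 1 held 1087 of 1153 microglia-like and 40 of 248 dendritic-like cells. Within library 2 the background was 17.6% higher and 16.5% lower. Values of the pathway genes within a library are not given here. Of 10 genes that prepare antigen in the endosome, 1 was at least 2-fold higher in dendritic-like cells and 7 were lower. The higher one was Ifi30, a thiol reductase that opens disulfide bonds, at 538 (508 to 569) against 158 CPM. Among the lower ones were the proteases Ctss, which trims Cd74, at 2131 against 9335 CPM, Ctsd at 472 against 11150.0 CPM, Ctsl at 70.6 against 1458 CPM and Lgmn at 341 against 5911 CPM, and the protease inhibitor Cst3, at 13742 against 65233 CPM. Their median log2 ratio was -2.19, against -0.56 over all genes. Of 14 promoter factors and upstream regulators, 2 were higher and 5 lower. Irf4, a factor of dendritic cells, had 24.3 against 3.04 CPM, and Irf8, a factor of microglia and dendritic cells, 218 against 703 CPM, while Spi1 (501 against 552 CPM) was within 2-fold. Of 3 genes for surface turnover 0 were higher and 1 was lower, and Cd83, which protects class II molecules from removal, stood at 672 and 631 CPM. Of 3 co-stimulation genes tested out of 6, 0 were higher and 1 was lower, Cd86, at 125 against 262 CPM. This count leaves out Cd40, which had too few UMIs to be tested. Its level was higher in dendritic-like cells and is given under the other observations. Cd44, a co-receptor of Cd74, was higher at 101 CPM (88.3 to 115) against 1.52 CPM (0.657 to 3.00), and Mif, a ligand of Cd74, stood at 194 and 171 CPM.

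The genes whose levels ran most like the classical class II genes were sought among 5995 genes over 17 sums, each of 1 class in 1 library, by Pearson correlation of log2(CPM + 10). The correlation is a description, since sums of 1 library share their depth and their free RNA. Outside the members, the closest were Cd209a (0.96), Mgl2 (0.937), Myadm (0.932), Clec4b1 (0.919), Avpi1 (0.918), Pmaip1 (0.917), Shtn1 (0.911), Clec10a (0.909), Tnip3 (0.894) and Wfdc17 (0.892). Cd209a, Mgl2 and Clec10a, lectins of dendritic cells and macrophages, were on the list that named the dendritic-like class. Cd209a peaked at 1648 CPM in dendritic-like cells of library 2. Among the members themselves the correlation was 0.908 for H2-DMa and H2-DMb1, 0.896 for H2-DMb2, 0.928 for H2-Oa and 0.873 for H2-Ob, while Ciita had too few UMIs to be included.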

How the data were processed

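Counts of UMIs per gene and cell were deposited by the authors as 1 matrix of 2149 cells; the submitters' processing notes name Cell Ranger 2.0.1 and mm10, and the filter that called cells is not given in the sources used here. The 10 genes, the pathway lists and the markers were chosen with earlier results of these data known. Kept were cells with at least 500 genes and at most 10% mitochondrial counts; 5 cells failed, and Scrublet (expected rate 5%) marked 7 of 2144 (0.326%), a low yield, so doublets may remain. With scanpy 1.11.5 (Python 3.11.15, igraph 0.11.9), log counts scaled to 10000, 2000 variable genes without 11 class II genes found in the table, 30 components, 15 neighbours and Leiden resolution 0.5 gave 14 clusters. A cluster was named when at least 3 markers were found in a fraction of 0.3 of its cells at 2 times the median cluster level. Where several lists passed, the one with the most markers among the 10 leading genes of the cluster gave the name. With several lists and no such marker the cluster stayed unnamed. These rules were settled after clusters were seen. Clusters of 28 cells in all were too small to describe. Levels are CPM of summed counts with exact 95% Poisson intervals, shares have exact Clopper-Pearson intervals, and both cover counting error only. Named were the 10 members, up to 4 pathway genes per list past 2-fold plus the 2 highest, and the 10 most alike genes. Promoter letters were searched in RefSeq windows. Scripts were tested on simulated counts. The T cell and B cell markers Trac, Trbc2, Ighm and Ighd, and H2-Ea-ps, were not analysed here. Alternatives changed clustering genes, resolution, filters, doublets, libraries, thinning, low-count limits, pseudocount and cell weighting.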

Additional observations from a re-analysis of the deposited data

Results flagged for a closer look

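The 12 cells removed as low-quality or as doublets were outside every comparison and held class II RNA. Of their 95711 UMIs, 2927 came from the 10 genes, a level of 30582 CPM (29484 to 31710.0), beside 26047 CPM in the 2137 cells that were kept. They were listed because 3 counts would be 31.3 CPM in these cells, a low bar that shows only that the genes were present. A class II UMI was found in 11 of the 12 cells, and 4 of them were class II-high.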

How the results depend on the processing

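No paired analysis was possible because there is 1 library per group and no test. With 1 choice changed at a time, 1988 of 2330 levels of the members stayed within 1.5 times, 180 lay above and 162 below. The fold of the 4 classical genes between dendritic-like and microglia-like cells was 68.1 with the members among the clustering genes, 74.9 and 48.1 at resolutions 1.0 and 0.3, 52.8 with at least 1000 genes per cell, 52.0 with at most 5% mitochondrial counts, 125 as a mean over cells and 292 without the top 1% of cells. Without 1 library it ranged from 49.5 to 59.2. The fold of H2-DMa was 4.17 at resolution 0.3 and ranged from 4.16 to 6.32 without 1 library. The share of microglia-like cells with a Cd74 UMI was 7.37% thinned to 1000 UMIs and 20.7% unthinned, and ranged from 9.99% to 56.7% without 1 library; for H2-DMa it was 30.1% and 69.6%, and ranged from 45.0% to 50.5%. The shares without library 1 did not come from the same thinned counts as those given above for library 2. Of the 10 genes most like the members, 5 were shared when sums of at least 10 cells were used. Apart from what thinning, fewer cells or fewer libraries change by construction, the cause of these shifts was not tested. The direction of both folds was the same in each of these settings. Depth limits H2-DMb2, H2-Ob and Ciita most: class II-high microglia-like cells had 1 UMI of H2-DMb2 and of Ciita each.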

Other observations

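H2-Eb2, a further beta chain gene of the class II locus that was not among the 10 genes, ran apart from them. It had 0 UMIs in 1153 microglia-like cells, which by 3 counts allows up to 0.571 CPM, and 6 UMIs (2.70 CPM, 0.990 to 5.87) in dendritic-like cells. In migratory-dendritic-like cells of library 2 H2-Eb2 stood at 88.0 CPM. Cd40, a co-stimulatory receptor, stood at 17.5 CPM (12.5 to 24.0) in dendritic-like and 1.14 CPM (0.419 to 2.48) in microglia-like cells.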
